A study of Mus musculus with 9 samples.

Results

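Mitochondrial ribosomal protein genes were taken by name from brown adipose tissue RNA-seq of mice. Every gene whose symbol begins with Mrpl or Mrps and a number was included, and 2 pseudogenes were left out. This gave 78 of the 16937 genes listed, 49 named for the large subunit (Mrpl) and 29 for the small subunit (Mrps), and all 78 were listed in each of the 3 comparisons. The study asked what the kinase GCN2, encoded by Eif2ak4, contributes when mice are exposed to acute cold. The 9 libraries fall into 3 groups of 3: WT RT, wild-type mice kept at 23°C; WT Cold, wild-type mice after 8 h at 4°C; and GCN2 KO Cold, mice with a whole-body GCN2 deletion after 8 h at 4°C. All were adult mice on the C57Bl/6J background that had been housed singly at room temperature beforehand. There was no GCN2 KO group at room temperature, so the comparison of GCN2 KO Cold with WT RT changes genotype and temperature together. The study used males and females. According to the paper each sequenced group held both sexes, and the labels do not give the sex of any sample.

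Mitochondria carry their own ribosomes, which translate only the small set of respiratory chain subunits encoded in mitochondrial DNA. Their RNAs are transcribed in the mitochondrion, whereas every ribosomal protein is encoded in the nucleus, made in the cytosol and imported. Some of these proteins belong to families shared with bacterial ribosomes and others are found only in mitochondrial ribosomes. Brown fat is rich in mitochondria, and its heat comes from a respiratory chain built from subunits of both genomes. The symbols do not fully follow position: the products of Mrps30 and Mrps18a sit in the large subunit, and Mrps36 encodes a subunit of the oxoglutarate dehydrogenase complex of the citric acid cycle. The genes were therefore described as 29 bacterial-family and 21 mitochondria-specific large subunit genes, 16 bacterial-family and 10 mitochondria-specific small subunit genes, and the pair Mrps18a and Mrps36.

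Promoter sequence was available for 69 of the 78 genes, as 300-base windows from 250 bases before to 50 bases after each start annotated by RefSeq on GRCm38.p6. The windows of Mrps18a, Mrps23 and Mrps6 are shown as examples among the genes whose RNAs differed between WT Cold and WT RT. Those of Mrpl34 and Mrps36 are shown because their RNAs were among the 3 highest by fold change in GCN2 KO Cold against WT Cold. Each line gives 150 bases 5′ to 3′ on the strand of the gene, the nearest stretch before the start that no annotated exon covered. The positions were chr17:46110836-46110985 (plus strand) for Mrps18a, chr11:88204238-88204387 (plus) for Mrps23, chr16:92058120-92058269 (plus) for Mrps6, chr8:71464776-71464925 (plus) for Mrpl34 and chr13:100744660-100744809 (minus) for Mrps36. Capitals mark matches, on either strand, to CCGGAAG, a site of ETS family factors such as GABP, or to GGGCGG, a site of SP family factors.
Mrps18a: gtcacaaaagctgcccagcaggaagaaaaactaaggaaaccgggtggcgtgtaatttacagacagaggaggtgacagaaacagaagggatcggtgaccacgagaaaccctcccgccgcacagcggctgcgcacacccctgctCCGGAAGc
Mrps23: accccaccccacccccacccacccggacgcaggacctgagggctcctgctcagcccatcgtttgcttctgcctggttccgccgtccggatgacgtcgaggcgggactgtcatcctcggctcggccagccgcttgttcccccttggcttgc
Mrps6: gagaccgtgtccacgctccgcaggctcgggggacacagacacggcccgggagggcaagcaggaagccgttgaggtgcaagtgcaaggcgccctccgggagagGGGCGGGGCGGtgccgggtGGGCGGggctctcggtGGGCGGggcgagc
Mrpl34: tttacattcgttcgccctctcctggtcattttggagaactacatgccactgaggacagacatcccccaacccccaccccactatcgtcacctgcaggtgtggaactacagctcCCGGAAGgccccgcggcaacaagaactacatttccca
Mrps36: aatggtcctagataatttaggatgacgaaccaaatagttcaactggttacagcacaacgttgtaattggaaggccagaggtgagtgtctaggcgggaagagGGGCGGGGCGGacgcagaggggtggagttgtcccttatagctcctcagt
The stretches of Mrps18a and Mrpl34 each held 1 ETS match, those of Mrps6 and Mrps36 held 4 and 2 SP matches, some overlapping, and that of Mrps23 held none. Over whole windows, CCGGAAG was present at 26 of 69 member genes (37.7%), against 9.93% of all 27025 genes with a window and 17.6% of the 12060 whose symbol was listed in the tables. ATGGCGG, a site of the factor YY1, was present at 13 members (18.8%), against 4.69% of all genes with a window and 8.17% of the listed genes. GCGCATG, the core of the site of nuclear respiratory factor 1, was present at 8 members (11.6%), against 4.41% and 6.998%. GGGCGG was present at 34 members (49.3%), which is above the 38.2% of all genes with a window and below the 63.9% of the listed genes. The median GC content was 58.7% for members' windows, 52.7% for all windows and 59.7% for those of listed genes. The windows of Mrpl20 and Mrpl47, whose RNAs also rose in WT Cold but which are not shown, held none of these sequences. A match is a description of letters in a window and not a measured binding site.

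The tissue and the libraries were checked first. Reads on listed genes totalled 27058799 to 30768064 a library. All 12 brown adipocyte markers were listed with a count for every library. Their summed levels were 19099 to 21016 CPM (reads scaled to a common library total) in WT RT, 25249 to 27264 in WT Cold and 29576 to 30313 in GCN2 KO Cold. Summed levels of 12 skeletal muscle markers, also all listed, were 2376 to 2910 CPM in WT RT, 2193 to 3684 in WT Cold and 317 to 1276 in GCN2 KO Cold. The 8 leukocyte markers summed to 275 to 456, 128 to 174 and 95.02 to 151 CPM, the 6 endothelial markers to 557 to 612, 647 to 800 and 531 to 643 CPM, and the 5 red blood cell markers to 260 to 345, 572 to 2279 and 1084 to 2081 CPM, in the same order of groups. In bulk tissue fewer cells of a type and less RNA per cell cannot be told apart. Eif2ak4 had normalized counts of 312, 353 and 391 in WT RT and 192, 252 and 260 in WT Cold, and, in the table of GCN2 KO Cold against WT Cold, 171, 225 and 231 in WT Cold against 347, 371 and 350 in those labelled GCN2 KO Cold. The targeted gene's RNA was thus not lower in those libraries (log2 fold change 0.78 ± 0.15, SE; limma adjusted p = 0.0932), and the deposited counts do not show which part of the gene was deleted. Library codes of WT RT carry a prefix that those of both cold groups do not, so whatever the prefix stands for and the cold cannot be told apart.

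Levels were compared between genes per kilobase of exon. In WT RT the median over the 78 genes was 22.6 CPM per kb, with a range from 2.53 to 187. Mrpl34, a short bacterial-family protein of the large subunit, was the highest at 197, 191 and 174 CPM per kb in the 3 libraries. Mrps21, of the small subunit, had 158, 144 and 146, Mrpl12, which sits at the stalk that binds translation factors, had 104, 99.0 and 103, and Mrps36 had 98.5, 87.9 and 90.9. These 4 genes kept the order Mrpl34, Mrps21, Mrpl12 and Mrps36 in WT RT without overlap between neighbours. At the other end stood Mrpl19 (5.33 ± 0.18, SD, n = 3), Mrps25 (5.23 ± 0.46), Mrps30 (4.53 ± 0.16) and Mrpl53 (2.53 ± 0.31), of which Mrpl19 and Mrps25 overlapped. Exon length summed all annotated isoforms, 5450 bases for Mrpl19, 6576 for Mrps25 and 6666 for Mrps30, which lowers a level per kb where long isoforms are rare. Mrpl53 had 44 to 83 reads a library, the fewest of all members, and 695 of its 790 exon bases are shared with the gene model Gm42688 on the same strand. Each of the other 77 genes had at least 656 reads in every library.

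Exons of 33 of the 78 genes overlapped those of another gene, mostly on the opposite strand, and the library kit is not stated to keep strand. Reads in such stretches cannot be assigned to either gene with certainty. Mrpl46 and Mrps11 overlap each other by 173 bases. Mrps6 shares 159 exon bases with Slc5a3, the myo-inositol transporter gene, and 305 with the model Gm49711, Mrpl14 shares 106 of 949 with Tmem63b, and Mrpl47 shares 452 with Actl6a and 616 with Ndufb5. Mrpl12, Mrps18b, Mrps18c, Mrps30, Mrpl44, Mrpl49 and Mrpl58 also had overlaps, of between 2 and 638 bases, whereas Mrpl20, Mrps23, Mrpl54, Mrps2, Mrps18a, Mrps36, Mrpl34, Mrpl1 and Mrpl50 had none.

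**Figure D1:**
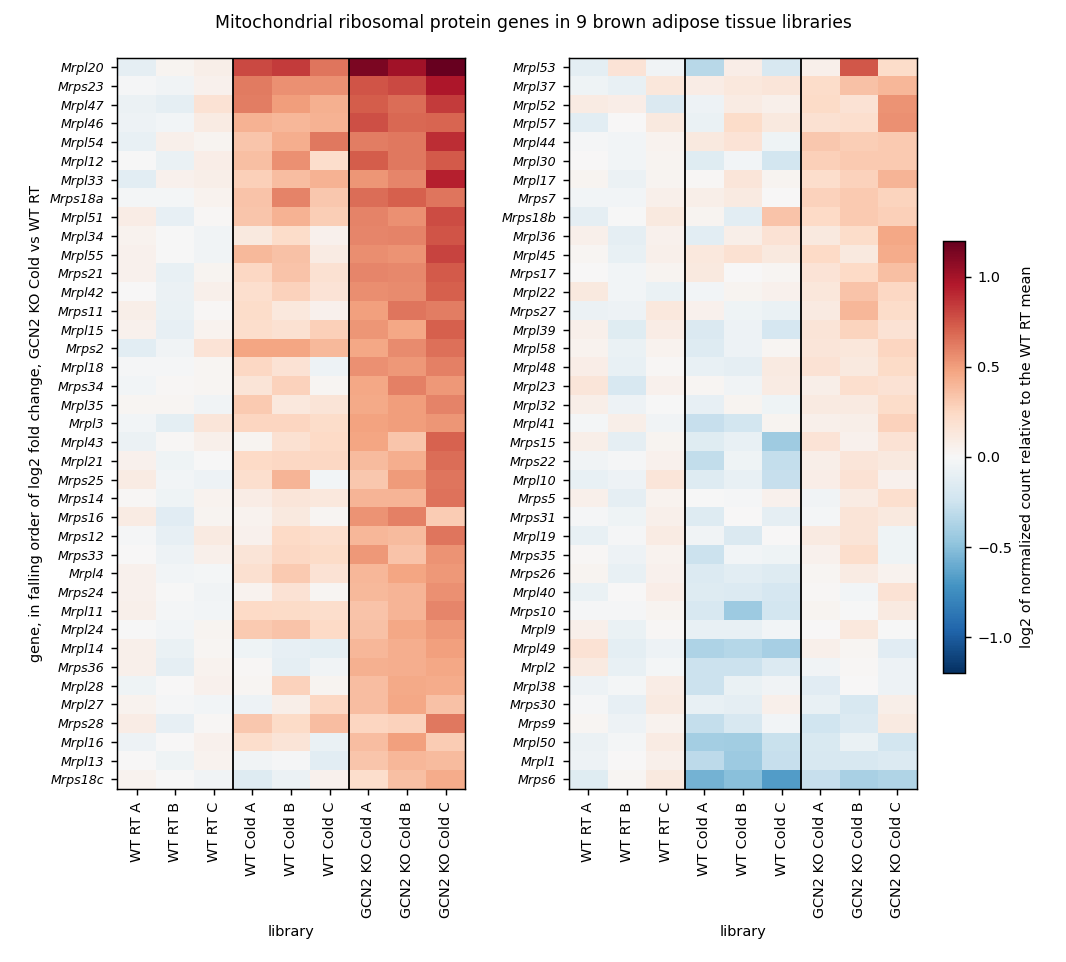
Each row is one of the 78 genes, in falling order of its log2 fold change in GCN2 KO Cold vs WT RT, and each column is a library, with colour giving the log2 of the normalized count (size factors set over all 9 libraries) relative to the WT RT mean. Mrpl20 and Mrps23 stand at the top with rises in all 6 cold libraries, Mrps6 at the bottom with falls, and the 3 GCN2 KO Cold columns are redder than the WT Cold columns for most genes.

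What 8 h of cold did in wild-type mice was asked by comparing WT Cold with WT RT, whose library codes also differ in prefix. Among the 78 genes, 14 rose (17.9%, against 13.6% of all 16679 genes) and 4 fell (5.13%, against 14.1%) at an adjusted p under 0.05 in limma on log2(normalized count + 1). None changed by more than 1 on the log2 scale, a size reached with that p by 2.99% of all genes upward and 5.15% downward. The median log2 fold change was 0.07, against 0.00 over all genes, and 48 of the 78 lay above 0 (61.5%, against 50.2% of all genes). In 24 genes (30.8%, against 22.8% of all genes) every cold library was above every room temperature library, and in 10 (12.8%, against 22.8%) every cold library was below.

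Mrpl20, a bacterial-family protein of the large subunit, rose most. Its normalized counts were 1920, 2098 and 2163 in WT RT and 3545, 3668 and 3210 in WT Cold. Every cold library was above every room temperature library, and the log2 fold change was 0.75 ± 0.08 (SE, limma adjusted p = 0.000944). Mrps23, a mitochondria-specific protein of the small subunit, had 2881, 2812 and 2998 in WT RT and 4454, 4232 and 4224 in WT Cold. The groups were again separate, with a log2 fold change of 0.57 ± 0.07 (limma adjusted p = 0.00114).

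The next largest rises were those of Mrpl47 (log2 fold change 0.51 ± 0.10, SE), a bacterial-family protein at the exit of the nascent chain, Mrpl54 (0.46 ± 0.10), a mitochondria-specific large subunit protein, Mrps2 (0.44 ± 0.09), a bacterial-family small subunit protein, and Mrps18a (0.41 ± 0.09). Their limma adjusted p-values lay between 0.00832 and 0.0127, and in each the 3 cold libraries were above the 3 room temperature libraries. Mrpl12 rose from 4482 ± 254 to 5821 ± 661 normalized counts (SD, n = 3; log2 fold change 0.37 ± 0.10, limma adjusted p = 0.0247), a call lost with CPM, without the mean-variance trend and without WT RT A, WT RT B, WT Cold A or WT Cold B (limma adjusted p 0.0618 to 0.083). Mrpl46, Mrpl33, Mrpl51, Mrps28, Mrpl24, Mrps21 and Mrpl21 made up the rest of the 14, with log2 fold changes from 0.24 to 0.41.

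Mrps6, a bacterial-family protein of the small subunit, fell most. It had normalized counts of 1357, 1519 and 1623 in WT RT and 1009, 1051 and 937 in WT Cold. All cold libraries were below all room temperature libraries, and the log2 fold change was -0.58 ± 0.09 (SE, limma adjusted p = 0.00418). Slc5a3, which shares exon sequence with Mrps6, had a log2 fold change of -0.32 ± 0.24 (limma adjusted p = 0.364). The other 3 that fell were large subunit genes: Mrpl49 went from 1124 ± 129 to 863 ± 15.2 normalized counts (SD, n = 3), Mrpl50 from 2991 ± 184 to 2322 ± 145 and Mrpl1, whose product forms the mobile stalk beside the exit site for tRNA, from 1099 ± 41.7 to 864 ± 50.8. Their log2 fold changes were -0.37, -0.37 and -0.35 with limma adjusted p-values of 0.0272, 0.0139 and 0.019996. Mrpl49 and Mrpl1 no longer passed with median-centred libraries (0.0907 and 0.0748) or with any of 4 single libraries left out, WT Cold A and WT Cold B among them, and Mrpl50 without either of those 2 (0.0519 and 0.0562). Without the mean-variance trend neither Mrpl49 (0.0632) nor Mrpl50 (0.0505) passed.

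By class, 6 of 29 bacterial-family large subunit genes rose and 1 fell (median log2 fold change 0.09), and the shares that rose, 12.5 to 20.7% over the 4 classes, were near the 13.6% of all genes. Of the mitochondria-specific large subunit genes 3 of 21 rose and 2 fell (median 0.03), of the bacterial-family small subunit genes 2 of 16 rose and 1 fell (median 0.06), and of the mitochondria-specific small subunit genes 2 of 10 rose and none fell (median 0.06). Mrps12 of the decoding centre (0.16 ± 0.09), Mrpl44, an RNase III-like protein of the large subunit (0.07 ± 0.09), Mrps22 (-0.21 ± 0.09), Mrps18b (0.08 ± 0.13), Mrps18c (-0.06 ± 0.09), Mrps30 (-0.05 ± 0.10), Mrps36 (-0.05 ± 0.08) and the ribosome rescue factor Mrpl58 (-0.07 ± 0.08) did not pass the test, with limma adjusted p-values from 0.128 to 0.741. The counts depended on scaling and on single libraries. With CPM in place of the authors' size factors, 9 genes were higher and 8 lower (9.47% and 17.4% of all genes) and the median was -0.017, against -0.061 over all genes. The number higher was 7 without WT Cold B, 8 without WT RT B and 9 without WT RT A or WT Cold A. The number lower was 1 without WT Cold A or WT Cold B, 2 without WT RT C and 7 without WT Cold C. The shares of all genes called in these fits were not counted. Marker genes moved in this comparison too, with all 5 red blood cell markers called higher (median 1.64) and 5 of 8 leukocyte markers called lower (median -1.01). Of 6 endothelial markers 2 were called higher (median 0.27), and of 12 skeletal muscle markers 1 (median 0.27). Among 12 brown adipocyte markers 4 were called higher and 2 lower (median 0.17). The part of all these markers was not tested.

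**Figure D2:**
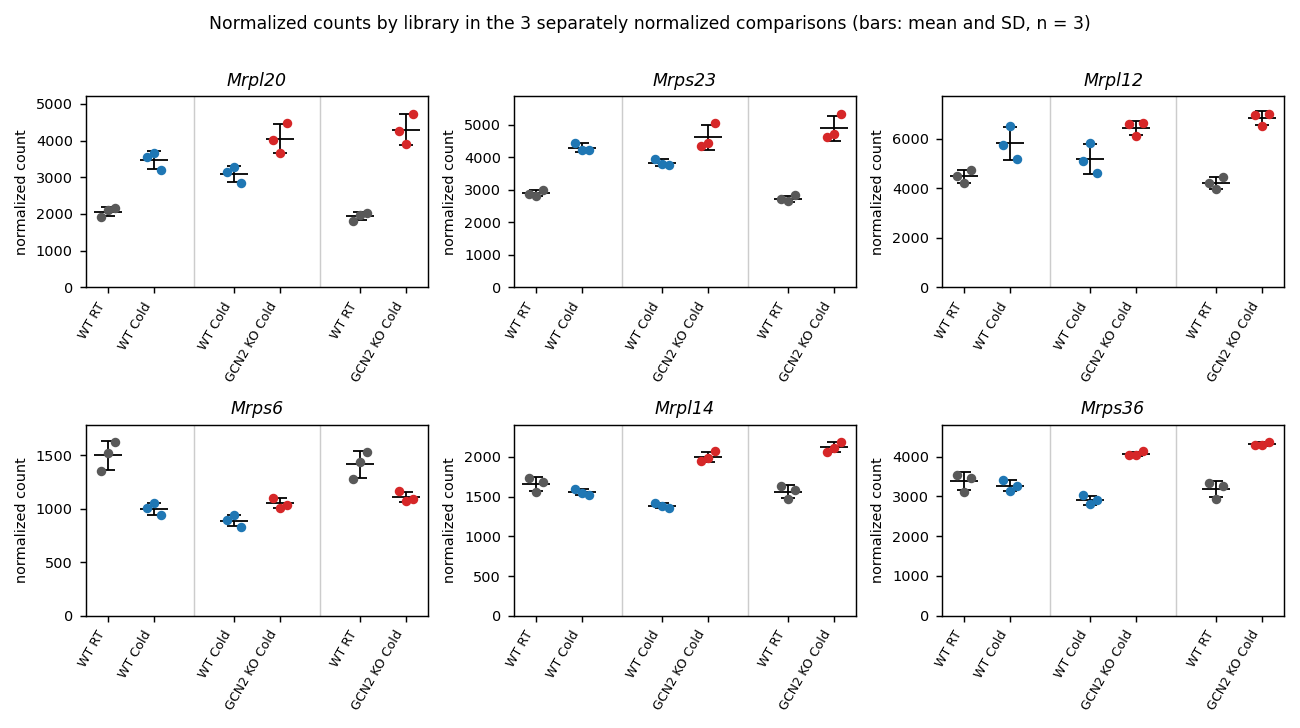
Normalized counts of 6 genes in each library, with mean and SD (n = 3), shown for the 3 comparisons, which were normalized separately. Mrpl20 and Mrps23 were higher and Mrps6 lower in WT Cold than in WT RT, whereas Mrpl14 and Mrps36 overlapped between WT RT and WT Cold and were higher in GCN2 KO Cold than in WT Cold.

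What GCN2 deletion changed in the cold was asked by comparing the libraries labelled GCN2 KO Cold, in which Eif2ak4 RNA was not lower, with WT Cold. Only 2 of the 78 genes passed the limma test, Mrpl14 and Mrps36, both higher (2.56%, against 0.178% of all 16312 genes), and none was lower (against 0.227%). None exceeded 1 on the log2 scale, against 0.0613% of all genes upward and 0.196% downward. The individual differences were small and mostly of 1 sign: 77 of 78 log2 fold changes lay above 0 (98.7%, against 49.5% of all genes), from 0.07 to 0.53, with a median of 0.26 against -0.00 over all genes. In 61 genes (78.2%, against 11.3% of all genes) every GCN2 KO Cold library was above every WT Cold library, in none was the reverse true (against 10.7%), and 56 had an unadjusted limma p under 0.05 in this direction (71.8%, against 7.83%). The 78 genes were measured in the same 6 libraries and are not independent of each other, so these counts describe the libraries and carry no p-value.

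Mrpl14, a bacterial-family protein of the large subunit at the face that meets the small subunit, had normalized counts of 1420, 1381 and 1354 in WT Cold, against 1946, 1983 and 2071 in GCN2 KO Cold. The groups were well apart, with a log2 fold change of 0.53 ± 0.07 (SE, limma adjusted p = 0.0439). Mrps36 had 3027, 2800 and 2907 in WT Cold, against 4044, 4038 and 4138 in GCN2 KO Cold. The 3 libraries labelled GCN2 KO Cold lay close to each other and above all WT Cold libraries, with a log2 fold change of 0.49 ± 0.07 (limma adjusted p = 0.0439). Of these, Mrps36 is the member of the oxoglutarate dehydrogenase complex. Mrpl34 was between them in size, with 3131, 3376 and 2986 in WT Cold, against 4335, 4357 and 4882 in GCN2 KO Cold. Its groups did not overlap, but at 0.52 ± 0.08 its limma adjusted p was 0.0614.

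At the other end were Mrps30, with 720, 717 and 804 in WT Cold, against 724, 670 and 809 in GCN2 KO Cold, Mrpl38 (log2 fold change 0.07 ± 0.09, SE) and Mrps5 (0.07 ± 0.08). All 3 overlapped between groups, and Mrps30 was the single gene below 0 (-0.03, 95% interval -0.27 to 0.22). The class medians, whose differences were not tested, were 0.26 for bacterial-family and 0.25 for mitochondria-specific large subunit genes, 0.32 for bacterial-family and 0.26 for mitochondria-specific small subunit genes. The 3 Mrps18 genes, related by sequence but placed in different subunits, had log2 fold changes of 0.26 ± 0.09 (Mrps18a), 0.19 ± 0.12 (Mrps18b) and 0.40 ± 0.10 (Mrps18c). Mrpl12 had 0.32 ± 0.10, Mrps12 0.31 ± 0.10, Mrps22 0.32 ± 0.10, Mrpl44 0.23 ± 0.09 and Mrpl58 0.25 ± 0.08, with limma adjusted p-values from 0.187 to 0.269. Of the genes that had fallen in WT Cold, Mrps6 stood at 0.24 ± 0.09, Mrpl49 at 0.35 ± 0.09, Mrpl50 at 0.20 ± 0.08 and Mrpl1 at 0.16 ± 0.08, and none of them passed the test here. Both comparisons use the same WT Cold libraries, so a low value in those libraries enters both with opposite sign.

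The calls of this comparison depended on the test and on single libraries. DESeq2 on the recovered reads called 12 genes higher (15.4%, against 1.42% of all genes), edgeR called 1 (1.28%, against 0.11%), and with any 1 of the 6 libraries left out limma called none. With CPM limma called none, 72 of 78 log2 fold changes were above 0 (against 32.7% of all genes) and the median was 0.14, against -0.095 over all genes. The mitochondrial genome's own transcripts took 18.2 ± 0.317% of reads in WT RT, with 21.1 ± 1.08% in WT Cold as against 23.3 ± 0.930% in GCN2 KO Cold (SD, n = 3). With those transcripts left out of the totals, a scaling chosen after seeing the data, limma again called none of the 78 and their median was 0.18, against -0.065 over all genes. The 78 genes together took 0.498 ± 0.011% of reads in WT RT, 0.504 ± 0.018% in WT Cold, against 0.568 ± 0.021% in GCN2 KO Cold.

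Several measured features of the libraries moved with this difference, and their part in it was not tested. Skeletal muscle markers were lower in GCN2 KO Cold, with all 12 log2 fold changes below 0 (median -2.003), 1 of them called, and summed levels, given above, that did not overlap with those of WT Cold. Summed brown adipocyte markers were higher and endothelial markers lower in GCN2 KO Cold, both without overlap, with 10 of 12 (median 0.17) and 1 of 6 (median -0.11) log2 fold changes above 0. All 5 red blood cell markers lay above 0 (median 0.64), and 6 of the 7 leukocyte markers tested lay below 0 (median -0.34), and no gene of these 4 lists passed the limma test. The share of reads from the mitochondrial genome did not overlap either, at 19.9 to 21.9% in WT Cold, against 22.7 to 24.4%. Log2 fold changes also depended on exon length across genes averaging 300 normalized counts or more. The median over other genes fell from 0.26 for genes under 1000 bases to -0.07 for genes of 6000 bases or more, while for members it was 0.30 (8 genes) and 0.25 (12 genes) in those classes. After a length trend was removed from each library, 76 of 78 log2 fold changes were above 0 (against 48.4% of all genes). With this correction the median was 0.19 and the 1 gene called was Mrpl13, at 0.50 (1.28%, against 0.129% of all genes higher). Mrpl14 then stood at 0.34 and Mrps36 at 0.33, both with a limma adjusted p of 0.137.

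**Figure D3:**
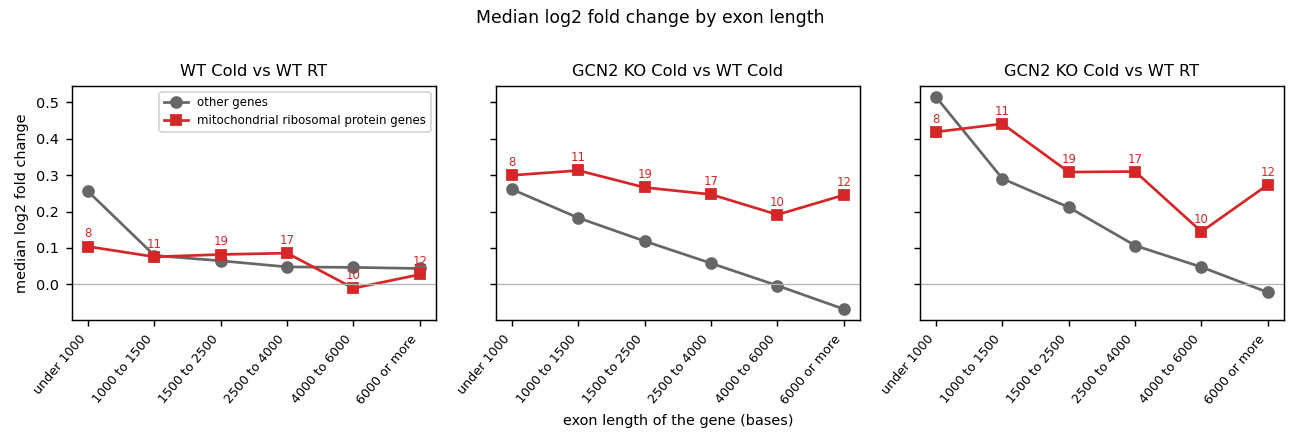
Median log2 fold change (vertical axis) by exon length in bases (horizontal axis) for members, with their number, and for all other genes averaging 300 normalized counts or more. In GCN2 KO Cold vs WT Cold the medians of other genes fell from 0.26 to -0.07 with length while those of members stayed between 0.19 and 0.31, and in WT Cold vs WT RT both lines lay close together beyond the shortest class.

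GCN2 KO Cold against WT RT sets the libraries labelled GCN2 KO Cold, again without a lower Eif2ak4 RNA than in WT Cold, beside wild-type mice at room temperature. Here 46 of the 78 genes were higher (59.0%, against 16.4% of all 16560 genes) and 1 was lower (1.28%, against 17.8%). The median log2 fold change was 0.34, against 0.01 over all genes, and 70 of the 78 were above 0 (89.7%, against 50.8% of all genes). In 56 genes all GCN2 KO Cold libraries exceeded all WT RT libraries (71.8%, against 23.7% of all genes), and in 3 the reverse was true (3.85%, against 25.5%). Only Mrpl20 passed 1 on the log2 scale (1.28%, against 3.01% of all genes upward, and none against 7.58% downward). These values share the WT RT libraries with the first comparison and the GCN2 KO Cold libraries with the second, so the 3 sets of values are not independent.

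Mrpl20 had normalized counts of 1809, 1978 and 2040 in WT RT and 4260, 3908 and 4733 in GCN2 KO Cold. Those labelled GCN2 KO Cold were all well above the others, a 2.21-fold difference (log2 fold change 1.14 ± 0.09, SE, limma adjusted p = 0.000163). Mrps23 had 2715, 2652 and 2828 in WT RT and 4620, 4718 and 5345 in GCN2 KO Cold. It was separate too, with a log2 fold change of 0.84 ± 0.08 (limma adjusted p = 0.000300). Next came Mrpl47 (0.75 ± 0.10), Mrpl46 (0.72 ± 0.08), a mitochondria-specific large subunit protein, Mrpl54 (0.71 ± 0.10) and Mrpl12 (0.69 ± 0.07), with limma adjusted p-values from 0.000473 to 0.00133. Mrps11, whose gene overlaps that of Mrpl46 on the opposite strand, rose by 0.58 ± 0.09 here (limma adjusted p = 0.00194), and in WT Cold against WT RT it had 0.13 ± 0.09 while Mrpl46 had 0.41 ± 0.08.

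Mrps6 was the single gene that fell. It had 1279, 1432 and 1531 normalized counts in WT RT and 1167, 1075 and 1096 in GCN2 KO Cold, without overlap (log2 fold change -0.34 ± 0.09, SE, limma adjusted p = 0.0207). The call was lost without WT RT B, WT RT C or GCN2 KO Cold B, where its limma adjusted p was 0.0616 to 0.0738, and with median-centred libraries (log2 fold change -0.20, limma adjusted p = 0.141). Mrpl50 (-0.16 ± 0.08), Mrpl1 (-0.18 ± 0.08) and Mrpl49 (-0.02 ± 0.11) did not pass the test (limma adjusted p 0.107 to 0.900).

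By class, beside 16.4% of all genes higher, 20 of 29 bacterial-family large subunit genes were higher (69.0%, median log2 fold change 0.42), as were 8 of 21 mitochondria-specific large subunit genes (median 0.31), 11 of 16 bacterial-family small subunit genes (median 0.31, with Mrps6 lower), 5 of 10 mitochondria-specific small subunit genes (median 0.31) and both Mrps18a (0.67 ± 0.07, SE) and Mrps36 (0.44 ± 0.07). Whether classes differ was not tested. Among genes singled out for their roles, Mrps12 (0.47 ± 0.10), Mrpl44 (0.31 ± 0.07), Mrps18b (0.28 ± 0.09) and Mrps18c (0.34 ± 0.09) rose, with limma adjusted p-values from 0.00833 to 0.0387, whereas Mrps22 (0.11 ± 0.08), Mrps30 (-0.07 ± 0.10) and Mrpl58 (0.18 ± 0.08) did not pass (0.109 to 0.613). The calls of Mrpl44, Mrps18b and Mrps18c were lost with CPM (limma adjusted p 0.282, 0.492 and 0.27), and those of all 4 with the exon length correction (0.0938 to 0.367). Without the mean-variance trend Mrps18b and Mrps18c did not pass (0.0819 and 0.0516), and the call of Mrps18b was also lost with size factors set over all 9 libraries (0.0941). Mrps18b kept its call only without WT RT C among the fits that left out 1 library (0.0637 to 0.123 in the others), and Mrps18c lost it without WT RT B, WT RT C or GCN2 KO Cold B (0.0514 to 0.0586). With CPM, 31 genes were higher and 6 lower (8.94% and 29.2% of all genes) and the median was 0.12. CPM itself moved the median of all genes in this comparison from 0.01 to -0.15. Skeletal muscle markers were lower in this comparison too (11 of 12 called, median -1.72), as were 6 of 8 leukocyte markers (median -1.27), whereas all 5 red blood cell markers (median 2.31) and 6 of 12 brown adipocyte markers (median 0.28) were called higher and 1 of the latter lower. The part of these markers was not tested. With the length trend removed, 39 were higher and 3 lower (16% and 17.8% of all genes) and the median was 0.23.

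**Figure D4:**
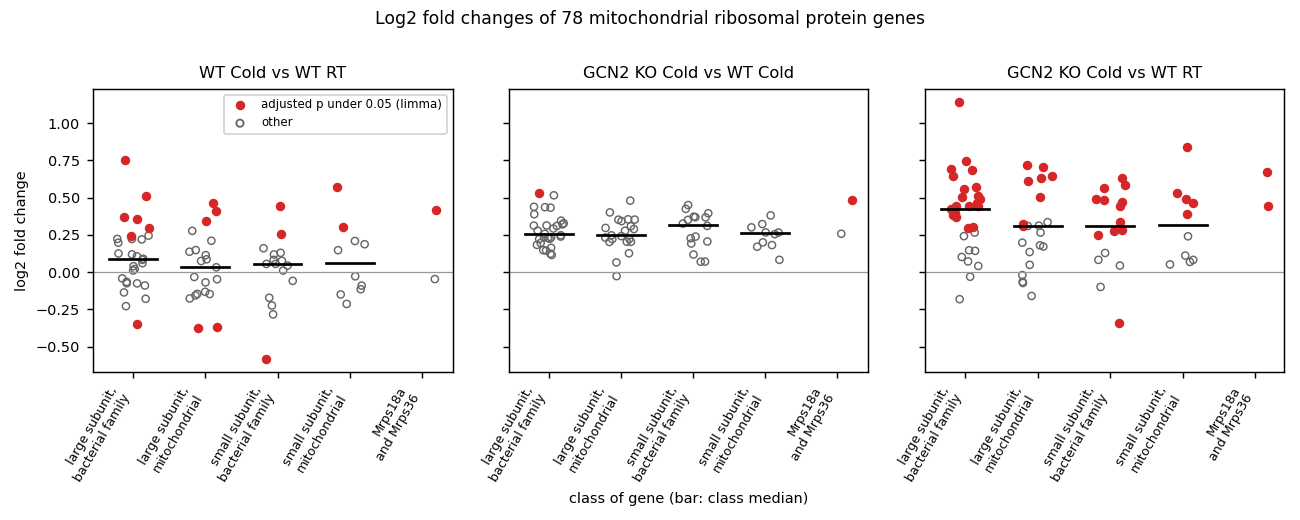
Log2 fold change of each of the 78 genes (vertical axis) by class (horizontal axis) in the 3 comparisons, with filled points for limma adjusted p under 0.05 and bars for class medians. In GCN2 KO Cold vs WT Cold 77 of 78 points lie in a narrow band above 0, 2 of them filled, and Mrps30 lies at -0.03, and in GCN2 KO Cold vs WT RT most points are filled and up to 1.14.

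Over the 3 comparisons 28 of the 78 genes were called in none by limma within each table (35.9%, against 59.3% of the 16006 genes tested in all 3). They were 11 mitochondria-specific and 8 bacterial-family large subunit genes and 5 mitochondria-specific and 4 bacterial-family small subunit genes: Mrpl2, Mrpl9, Mrpl10, Mrpl19, Mrpl22, Mrpl23, Mrpl32, Mrpl36, Mrpl38, Mrpl39, Mrpl40, Mrpl41, Mrpl45, Mrpl48, Mrpl52, Mrpl53, Mrpl57, Mrpl58, Mrps5, Mrps9, Mrps10, Mrps15, Mrps22, Mrps26, Mrps27, Mrps30, Mrps31 and Mrps35. Their log2 fold changes ran from -0.28 to 0.14 in WT Cold against WT RT, from -0.03 to 0.48 in GCN2 KO Cold against WT Cold and from -0.10 to 0.34 in GCN2 KO Cold against WT RT. Other fits called some of them: DESeq2 called Mrpl39 between the cold groups, edgeR called Mrps10 in WT Cold against WT RT, and Mrps22, Mrps30 and Mrpl58 each passed under another scaling. Under other scalings only Mrps5, Mrps22, Mrps30, Mrpl38 and Mrpl58 of these 28 were followed singly. More of the 28 may therefore pass under them. A p that missed the threshold does not show that such a gene was unchanged.

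Other genes of mitochondrial gene expression were read from gene lists, whose counts stand beside 13.6% of all genes higher and 14.1% lower in WT Cold against WT RT, and 16.4% and 17.8% in GCN2 KO Cold against WT RT. Of 5 mitochondrial ribosomal protein genes with other names (Aurkaip1, Chchd1, Dap3, Gadd45gip1 and Ptcd3), none passed in WT Cold against WT RT or in GCN2 KO Cold against WT Cold. Aurkaip1 (log2 fold change 0.48 ± 0.07, SE) and Chchd1 (0.48 ± 0.11) rose in GCN2 KO Cold against WT RT (limma adjusted p 0.00197 and 0.0104). All 5 lay above 0 in GCN2 KO Cold against WT Cold, with a median of 0.30.

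Of 16 translation factors and their helpers, 1 rose and 1 fell in WT Cold against WT RT (6.25% each way, below the shares of all genes). Gfm1, an elongation factor that moves the ribosome along the mRNA, rose by 0.29 ± 0.09 (SE, limma adjusted p = 0.0393). Tsfm, which recharges the elongation factor Tufm, fell by 0.37 on the log2 scale (limma adjusted p = 0.0252). None passed in GCN2 KO Cold against WT Cold, where 15 of 16 lay above 0 (median 0.21). From WT RT to GCN2 KO Cold 6 rose (37.5%) and none fell, led by Qrsl1 (0.57 ± 0.11), which helps charge glutaminyl-tRNA, Gfm1 (0.50 ± 0.09), Oxa1l (0.43 ± 0.07), which inserts new proteins into the inner membrane, and Taco1 (0.43 ± 0.12), an activator of translation.

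Of 26 assembly and RNA modification factors of the mitochondrial ribosome, 5 rose and 3 fell in WT Cold against WT RT, and 9 rose and 2 fell in GCN2 KO Cold against WT RT. In the first of these the shares, 19.2% and 11.5%, were near those of all genes, and in the second they were 34.6% and 7.69%. Fastkd2, needed for the large subunit RNA, rose by 0.74 ± 0.09 and 0.77 ± 0.13 in these comparisons (SE, limma adjusted p = 0.00120 and 0.00273). Mterf3 rose by 0.54 ± 0.09 and 0.61 ± 0.13, Mpv17l2 by 0.52 ± 0.12 and 0.78 ± 0.08, and Mettl17 by 0.50 ± 0.12 and 0.79 ± 0.14. Mettl15, a methyltransferase of the small subunit RNA, fell by 0.92 and 0.71 on the log2 scale (limma adjusted p = 0.0145 and 0.0325). None of the 26 passed in GCN2 KO Cold against WT Cold, where the median was 0.11, and Fastkd2 stood at 0.02 ± 0.12 and Dhx30, an RNA helicase of assembly, at -0.02 ± 0.08.

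Of 10 genes that copy and transcribe mitochondrial DNA or keep its RNA, Twnk, the replicative helicase, rose by 0.73 ± 0.11 (SE) and Slirp, which stabilizes mitochondrial mRNA, by 0.51 ± 0.08 in WT Cold against WT RT (limma adjusted p = 0.00363 and 0.00464). From WT RT to GCN2 KO Cold 5 rose: Slirp (0.98 ± 0.10), Twnk (0.72 ± 0.10), Tefm (0.50 ± 0.13), Tfam (0.43 ± 0.09), which packages mitochondrial DNA, and Ssbp1 (0.43 ± 0.10). In GCN2 KO Cold against WT Cold none of the 10 passed, and 5 lay above 0 and 5 below (median 0.04). The RNA polymerase gene Polrmt did not pass in any comparison (0.15 ± 0.09, -0.11 ± 0.09 and 0.04 ± 0.09). Twnk shares 507 exon bases with Mrpl43 on the opposite strand.

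Of 10 nuclear regulators of mitochondrial genes, Ppargc1a, a cold-induced coactivator, and its partner Esrra were the 2 that passed. Ppargc1a rose from WT RT by 2.70 ± 0.26 in WT Cold, and by 2.77 ± 0.39 in GCN2 KO Cold (log2, SE), and Esrra by 0.69 ± 0.12 and 0.93 ± 0.10, with limma adjusted p-values from 0.000468 to 0.00546. Between the cold groups Ppargc1a stood at 0.06 ± 0.42 and Esrra at 0.23 ± 0.11. None of the 10 passed there, and 2 lay above 0 and 8 below (median -0.13). Nrf1 (0.29 ± 0.11, -0.17 ± 0.11 and 0.12 ± 0.11), Gabpa (0.17 ± 0.17, -0.08 ± 0.16 and 0.09 ± 0.09) and Myc (0.42 ± 0.22, -0.29 ± 0.26 and 0.13 ± 0.20) did not pass in any comparison. Ucp1, the uncoupling protein of brown fat, rose by 1.02 ± 0.16 and 1.30 ± 0.17 from WT RT, and its difference between the cold groups was 0.27 ± 0.11 (limma adjusted p = 0.283).

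Set beside other gene groups of the same tables, the median of the mitochondrial ribosomal protein genes was 0.07 in WT Cold against WT RT, where it was 0.28 for 87 cytosolic ribosomal protein genes and 0.23 for 90 nuclear-encoded respiratory chain subunit genes. In GCN2 KO Cold against WT Cold the 3 medians were 0.26, 0.11 and 0.35, and in GCN2 KO Cold against WT RT 0.34, 0.41 and 0.56. The numbers called higher were 14 of 78, 57 of 87 and 41 of 90 in WT Cold against WT RT, 2, 0 and 0 between the cold groups, and 46, 71 and 75 in GCN2 KO Cold against WT RT. Differences between these groups of genes were not tested.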

How the data were processed

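Brown adipose tissue RNA of 9 mice was sequenced in paired reads after poly(A) selection with a kit that is not stated to keep strand. The submitters' processing notes name Trimmomatic 0.36, STAR 2.5.2b, Subread 1.5.2 with featureCounts, DESeq2 and the build GRCm39. The deposited tables, 1 for each of 3 comparisons, hold, for every gene and library, a signal made by dividing the count of reads in exons by a size factor that the authors set within that table, so tests were made within a table. Columns with the authors' own log2 fold changes and p-values were not used. Value columns are headed by library codes that name no mouse. They were assigned to groups through the comparisons in which each code occurs, and no column was tied to a replicate number. The title of 1 GCN2 KO Cold sample names both genotypes, and its genotype label was followed. Columns of other samples numbered 0.

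Whole reads were recovered for 100% of values (tolerance 0.001). The main test was limma 3.58.1 in R 4.3.3 on log2(value + 1), with a mean-variance trend, 6 libraries, and Benjamini-Hochberg adjustment over all genes of the table. A fold change on this scale understates that of low genes. DESeq2 1.42.0 (the study's test) and edgeR 4.0.16 were run on the recovered reads, and other scalings, pseudocounts and filters and leaving out each library were tried. CPM across the 9 libraries used recovered reads over the library total, and levels per kb used exon lengths from GENCODE M21, which is on GRCm38. On simulated data limma recovered 54% of 100 genes changed by 0.5 (log2) and 99% of 100 changed by 1 in WT Cold vs WT RT. The shares were 63% and 99% between the cold groups and 46% and 98% in GCN2 KO Cold vs WT RT. Unchanged genes called numbered 12, 12 and 5 in the same order. The simulation gave every gene the same fixed dispersion and changed no genes but these. Its shares are therefore a check of the fit and not the power of the test on these data.

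Libraries held 27058799 to 30768064 reads on listed genes, and counting error is largest for Mrpl53, with 44 to 83 reads. The labels call samples biological replicates and give no sex, so p-values measure the spread between these samples. According to the paper each group held both sexes, so that spread includes any sex difference, which was not modelled. Whether the mix of sexes differed between groups cannot be seen. All members were counted. Those named with values were the 6 largest rises and falls among called members of each comparison, the 3 highest and 3 lowest where fewer than 3 were called, 10 genes chosen for known roles, the 4 highest and lowest by level per kb, and, of the other lists, up to 4 called genes per direction with 8 further genes. Members outside this rule (Mrps11, Mrpl13, the remaining called members, those called in no comparison, and Mettl15, Dhx30 and Slc5a3 among other genes) were named after their values were seen. Members, lists and promoters shown were chosen with earlier results of these data known. RefSeq promoter windows were matched by symbol.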

Additional observations from a re-analysis of the deposited data

How the results depend on the processing

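No paired analysis was possible because the columns carry library codes with no replicate number. Among values of single named genes, 813 kept their direction and side of the threshold under an alternative, 7 passed it newly, 83 no longer passed it and 28 changed sign, none of them called before or after. Those that passed newly were Mrps22 in WT Cold vs WT RT (-0.29) and Mrps30 in GCN2 KO Cold vs WT RT (-0.27) with all 9 libraries in 1 fit on CPM, Mrpl58 (0.33) and Mrps22 (0.26) in GCN2 KO Cold vs WT RT with median-centred libraries, and Mrpl34 between the cold groups with DESeq2 (0.52), with all 9 in 1 fit on CPM (0.40) and with all 9 and common size factors (0.52). In WT Cold vs WT RT the sign changes were in Mrpl44 (-0.00934 and -0.00936) and Mrps18b (-0.0018 and -0.0018) with CPM and with all 9 libraries in 1 fit on CPM, and Mrpl58 (0.026), Mrps18c (0.035), Mrps30 (0.047) and Mrps36 (0.048) with median-centred libraries. Between the cold groups they were Mrpl38 (-0.051 and -0.051) and Mrps5 (-0.046 and -0.046) with the same CPM settings, Mrpl38 (-0.011) and Mrps5 (-0.0061) with CPM without mitochondrial-genome genes, Mrps30 (0.026) with median-centred libraries, and Mrpl38 (-0.0027) and Mrps30 (0.021) with the exon length correction. From WT RT to GCN2 KO Cold they were Mrpl58 (-0.023 and -0.023) and Mrps22 (-0.090 and -0.090) with the CPM settings, Mrps22 (-0.000154) with CPM without mitochondrial-genome genes and Mrps30 (0.073) with median-centred libraries. Leaving out 1 library gave -0.048 to 0.19 for Mrps18b and -0.10 to 0.0042 for Mrps30 in WT Cold vs WT RT, and -0.0015 to 0.11 for Mrpl38 and -0.099 to 0.037 for Mrps30 in GCN2 KO Cold vs WT Cold. In WT Cold vs WT RT, 14 higher, 4 lower and a median of 0.07 became 9, 8 and -0.017 with CPM (all genes -0.061), and the median-centred libraries gave 21 higher, 2 lower and a median of 0.16 (all genes 0.097). Without the mean-variance trend 7 were higher and 2 lower, and at an adjusted p under 0.01 4 and 1. With all 9 libraries in 1 fit on CPM 10 were higher and 14 lower, with a median of -0.017 (all genes -0.062). Shares of all genes called were not counted with median-centred libraries, without the trend or at an adjusted p under 0.01. They were also not counted for the 9-library CPM fits or those leaving out 1 library. In every comparison, member counts under those settings therefore cannot be set beside all genes. Leaving out 1 library gave 7 to 14 higher, 1 to 7 lower and medians of 0.03 to 0.08. In GCN2 KO Cold vs WT Cold, 2 higher became 12 with DESeq2, 1 with edgeR, 0 with CPM (median 0.14 in place of 0.26), 0 without the trend, 0 at an adjusted p under 0.01, and 5 with all 9 libraries in 1 fit on CPM (0.14). Chosen after seeing the data, CPM without mitochondrial-genome genes gave 0 (0.18), the exon length correction 1 (0.19) and all 9 libraries with common size factors 11. In that order these were 0, 1.28 and 14.1% of members, against 0.0858, 0.129 and 0.968% of all genes called higher. Leaving out 1 library gave 0 higher each time and medians of 0.23 to 0.29. In GCN2 KO Cold vs WT RT the 46 higher stayed within 1.5 times under every alternative run, and 1 lower became 6 with CPM (median 0.12 in place of 0.34), 7 with all 9 in 1 fit on CPM (0.12), 0 with median-centred libraries (0.48), 0 without the trend, 0 at an adjusted p under 0.01, 3 with CPM without mitochondrial-genome genes (0.21) and 3 with the exon length correction (0.23). Of all genes, 29.2% were lower with CPM, 23.4% with CPM without mitochondrial-genome genes and 17.8% with the exon length correction. Leaving out 1 library gave 40 to 45 higher, 0 to 1 lower and medians of 0.30 to 0.39. CPM and median-centring moved the median of all genes in this comparison to -0.15 and 0.15. The cause of each change was not tested. Mrpl53, with 44 to 83 reads a library, is the member that depth limits most.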
